A study of Homo sapiens and Mus musculus with 20 samples.

Results

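Accessible chromatin was examined at 10 mucin and goblet-cell genes in SW480, an established human colorectal adenocarcinoma line that the labels describe as colon epithelium. The genes were the transmembrane mucins MUC1, MUC4, MUC13 and MUC17, the gel-forming mucins MUC2, MUC5AC and MUC5B, the trefoil peptides TFF1 and TFF3, and the transcription factor SPDEF. The ATAC-seq regions studied lie in each gene body and the 10 kb on both sides of it, and number 96 of the 167303 regions that had a peak in at least 2 of the 12 SW480 libraries. Another 53 places in the same windows had a peak in a single library and were not ranked. In ATAC-seq the Tn5 transposase cuts open chromatin, and a peak marks where its cuts pile up. The libraries form 4 groups of 3, all SW480 cells in EMEM medium with serum. Sodium propionate (NaPr) was given at 10 mM and sodium butyrate (NaBu) at 1 mM, for 12 to 16 h, each set against its own untreated cells (0 mM), and 50000 viable cells entered each reaction. The labels of the libraries give these doses, while the series' design text names them in the opposite order. The labels also give the NaPr and NaBu experiments different dates, so a difference between their untreated libraries and a difference between the dates cannot be told apart. Doses differ too, and results for both compounds stand side by side without a comparison between them.

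Mucus covers the gut epithelium. Goblet cells secrete gel-forming mucins, which assemble into the mucus gel, and in the colon this gel consists mainly of MUC2, whereas MUC5AC and MUC5B are better known from stomach, airway and salivary mucus. Transmembrane mucins stay anchored in the apical membrane, where they form the glycocalyx. Trefoil peptides are small secreted proteins that are released together with mucins and aid repair of the epithelium, TFF1 chiefly in the stomach and TFF3 in intestinal goblet cells. SPDEF is an ETS-family transcription factor that promotes the maturation of goblet cells. Bacteria of the gut ferment dietary fibre to propionate and butyrate, short-chain fatty acids that inhibit histone deacetylases.

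The regions that carry the results are printed here as 200 bases around the highest summit of each, from GRCh38, 5′ to 3′ on the strand of the gene. MUC1 is shown as the start region that kept its rank. The MUC17 intron, the MUC2 coding exon and the regions beyond the MUC2 and SPDEF ends were called in both experiments. Those from MUC17 and beyond MUC2 were picked for display after their values were seen. The MUC2 coding exon and the regions upstream of MUC5AC, beyond TFF3 and beyond SPDEF are the called regions with the greatest change in each experiment and direction. Capitals mark a match to the GC box GGGCGGG on either strand.

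MUC1 start, chr1:155193615-155193814, minus strand: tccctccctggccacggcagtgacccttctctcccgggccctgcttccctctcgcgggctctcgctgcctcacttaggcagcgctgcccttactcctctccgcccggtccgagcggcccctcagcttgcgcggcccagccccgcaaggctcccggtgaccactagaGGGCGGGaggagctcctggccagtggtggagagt
MUC17 first intron, chr7:101021771-101021970, plus strand: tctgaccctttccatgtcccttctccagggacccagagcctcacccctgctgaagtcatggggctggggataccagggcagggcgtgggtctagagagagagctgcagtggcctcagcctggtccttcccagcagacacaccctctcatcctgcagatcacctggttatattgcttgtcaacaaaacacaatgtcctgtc
MUC2 coding exon, chr11:1077889-1078088, plus strand: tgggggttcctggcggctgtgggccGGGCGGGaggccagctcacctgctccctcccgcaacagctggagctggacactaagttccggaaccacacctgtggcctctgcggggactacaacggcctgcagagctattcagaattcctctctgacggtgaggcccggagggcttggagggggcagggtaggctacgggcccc
Beyond the MUC2 end, chr11:1113029-1113228, plus strand: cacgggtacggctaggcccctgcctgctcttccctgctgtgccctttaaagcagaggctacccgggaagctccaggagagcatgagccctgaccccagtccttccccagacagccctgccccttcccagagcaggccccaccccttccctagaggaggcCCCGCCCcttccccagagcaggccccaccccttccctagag
Upstream of MUC5AC, chr11:1148889-1149088, plus strand: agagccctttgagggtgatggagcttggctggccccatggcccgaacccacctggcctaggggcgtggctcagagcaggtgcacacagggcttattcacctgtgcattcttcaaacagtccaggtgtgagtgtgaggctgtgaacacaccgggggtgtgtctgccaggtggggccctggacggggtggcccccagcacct
Beyond the TFF3 end, chr21:42310560-42310759, minus strand: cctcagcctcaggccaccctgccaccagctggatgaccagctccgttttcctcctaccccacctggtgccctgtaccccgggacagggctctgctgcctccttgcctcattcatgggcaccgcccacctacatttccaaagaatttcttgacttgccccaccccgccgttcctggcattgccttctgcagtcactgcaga
Beyond the SPDEF end, chr6:34531735-34531934, minus strand: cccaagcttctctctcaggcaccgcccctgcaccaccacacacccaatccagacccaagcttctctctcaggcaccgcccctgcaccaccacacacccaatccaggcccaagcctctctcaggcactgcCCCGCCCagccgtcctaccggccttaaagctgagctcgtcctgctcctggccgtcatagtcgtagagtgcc

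These 7 stretches had 57.0% to 71.0% G and C, against a median of 51.5% over all regions. The start region of MUC13, not printed, had 40.5%, with matches to AP-1 and HNF4 and no GC box. Consensus letters of 8 motifs were sought on both strands in the same 200 bases of every region. The GC box GGGCGGG occurred at 16 of 96 mucin and goblet-gene regions (16.7%) and at 8.39% of all regions. The AP-1 motif TGANTCA occurred at 6 of them (6.25%), against 19.0% of all regions. The CDX letters TTTATNG were found at 1 member region (1.04%, all regions 7.37%), the FOXA letters TGTTTAC at 3 (3.12%, all 3.42%) and the HNF4 letters CAAAGTC at 2 (2.08%, all 3.29%). CTTTGAT of TCF/LEF matched 4 (4.17%, all 4.65%), CCGGAAG of ETS factors 2 (2.08%, all 2.35%) and AGATAAG of GATA factors 0 of 96 (all 2.08%). None of these letter strings contains another, and a match describes the sequence only.

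Accessibility is given as the percentile rank of a region within its library, from 0 for no listed peak to 100 for the strongest, ordered by the −log10 p of its best peak. Each library had a peak at 55.4% to 64.2% of all regions, so that its weakest peak already ranks far above 0. A weak peak that drops off a list thus gives a large fall, and one that joins it a large rise. Ranks compare regions inside a library and would not show a change of all peaks alike. In bulk chromatin, fewer cells with an open region and a less open region in each cell cannot be told apart. The depth of the libraries is unknown, but the genome-wide background recovered from the lists was 0.936 to 2.35 overlapping tags in the NaPr experiment and 2.11 to 3.03 tags in the NaBu experiment. A start peak was present in all 12 libraries at 6 of 8 markers of colon epithelium, EPCAM, KRT8, KRT18, CDH1, CDX2 and VIL1. LGALS4 had one in 8 libraries and GPA33 in 0. Among 8 markers of other cell types, 4 (CD14, PECAM1, COL1A1 and PDGFRB) also had a start peak in all 12 libraries, so that an open start alone does not mark the cell type here, while PTPRC, CD3E, CDH5 and ALB had none in any library. Whether the 3 libraries of a group came from separate cultures is not stated, and p-values then measure the spread between these libraries, which may be technical.

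Among the 96 regions, 25 had a peak in every library, at 9 of the 10 genes but not at TFF1. A further 12 had no peak in the NaPr experiment and 21 had none in the NaBu experiment. The untreated libraries of both experiments already differed. At 10 regions the 3 untreated NaBu libraries had a peak and the untreated NaPr libraries had none, among them the TFF3 start, and 6 showed the reverse. These counts have no share over all regions beside them, and do not set the 10 genes apart from the genome. Each untreated NaPr library had a peak at 63.5% of the members and at 55.4% to 59.1% of all regions. In untreated NaBu libraries the shares were 56.2% to 59.4% of the members and 57.0% to 59.2% of all regions. Of the 96 regions, 51 could be tested in both experiments, 26 in the NaPr experiment only, 17 in the NaBu experiment only and 2 in neither.

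**Figure D1:**
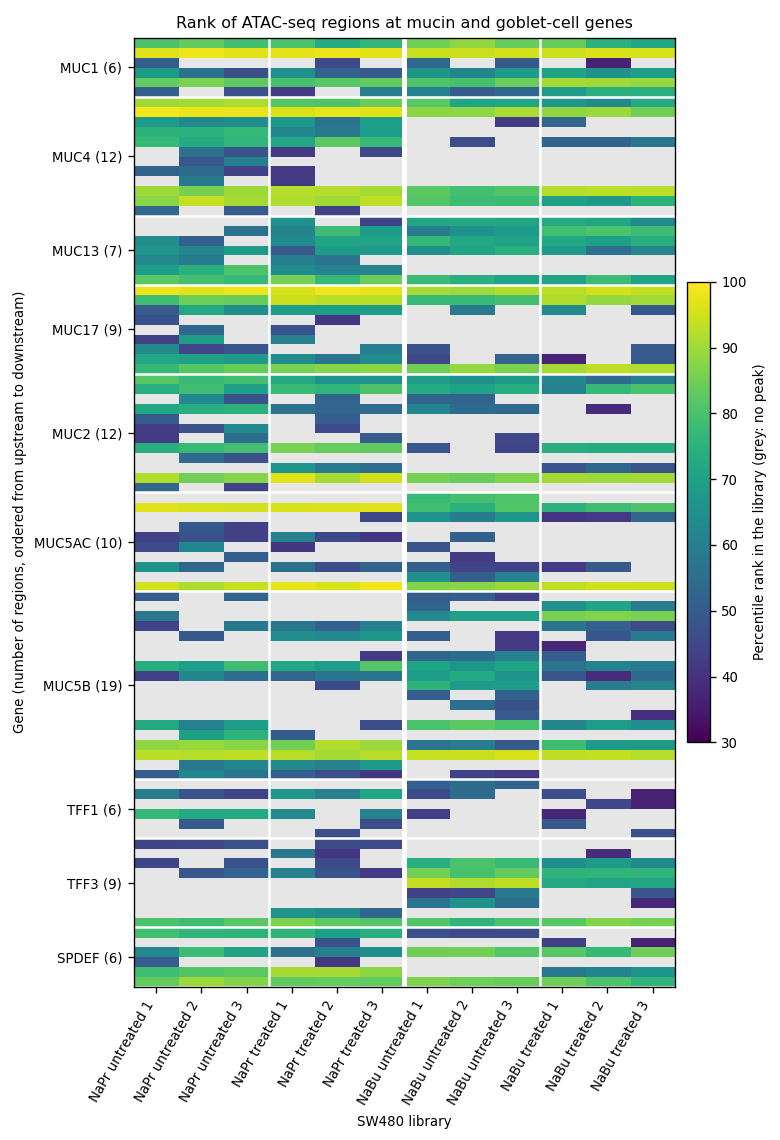
Percentile rank (colour, 30 to 100) of the 96 regions (rows, grouped by gene and ordered from upstream to downstream) in the 12 SW480 libraries (columns), with grey for no peak. The 25 regions with colour in every column stand beside regions that have a peak in a single experiment, such as the TFF3 start, which is grey in all NaPr-experiment columns.

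To ask how NaPr altered these genes, 77 regions with a peak in at least 2 of its 6 libraries were tested. Rank rose at 4 and fell at 2 of them, which is 7.79% of the members against 9.26% of all 124067 regions tested (limma, adjusted p below 0.05). Of all regions 5.16% rose and 4.1% fell, against 5.19% and 2.60% of the members. An unadjusted p below 0.05 was found at 19 of 77 (24.7%), against 23.2% of all regions. The median change was -1.43 percentile points over the members and 0.0389 over all regions. The share called lay near the background. A peak in the 3 treated and no untreated libraries was found at 2 members (2.60%, background 2.95%), and the reverse at 0 (background 1.5%). The 4 regions that rose were at MUC17, MUC2, TFF3 and SPDEF, and the 2 that fell at MUC4 and MUC2. All 6 calls were lost without untreated replicate 2, when no region of the genome was called and the adjusted p-values were 0.0517 at 5 regions and 0.0651 at the MUC2 exon, although 17 members had an unadjusted p below 0.05. Without treated replicate 3 there were 10 calls, 5 in each direction. The direction of calls depended on the scaling. Recovered summit pileups scaled by the background, which moved the median of all regions by 0.205 on the log2 scale, gave 6 higher and 0 lower of the 38 members with a peak in all 6 libraries (15.8%, all such regions 14.6%). Scaling by their median gave 5 higher and 6 lower of the 38 (28.9%, all 32.1%). A percentile among each library's own peaks gave 8 higher and 2 lower of 77 (13%, all regions 7.79%).

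After NaBu, 68 regions were tested, of which 14 rose and 15 fell. These 42.6% of the members compare with 31.6% of 123730 regions over the genome (limma, adjusted p below 0.05). The share that rose was 20.6% against 17.1% of all regions, and the share that fell 22.1% against 14.5%. An unadjusted p below 0.05 was found at 37 of 68 (54.4%), against 43.0% of all. The median change was -2.19 points over the members and 0.560 over all regions. Regions with a peak in the 3 treated and no untreated libraries numbered 3 (4.41%, background 6.41%), and 5 had the reverse pattern (7.35%, background 3.72%). The treated libraries had a peak at 51, 48 and 53 of the 96 regions and the untreated libraries at 57, 54 and 57, while over the whole genome the treated libraries had more regions with a peak (105396 to 107371 against 95374 to 99098). The gap to the genome was narrower when regions were ranked by fold enrichment, at 27.9% of members against 23.9% of all, and without treated replicate 2, at 32.8% against 29.5%. With a percentile among each library's own peaks, 18 members were higher and 10 lower (41.2%), against 29352 higher and 16327 lower over the genome (36.9%).

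**Figure D2:**
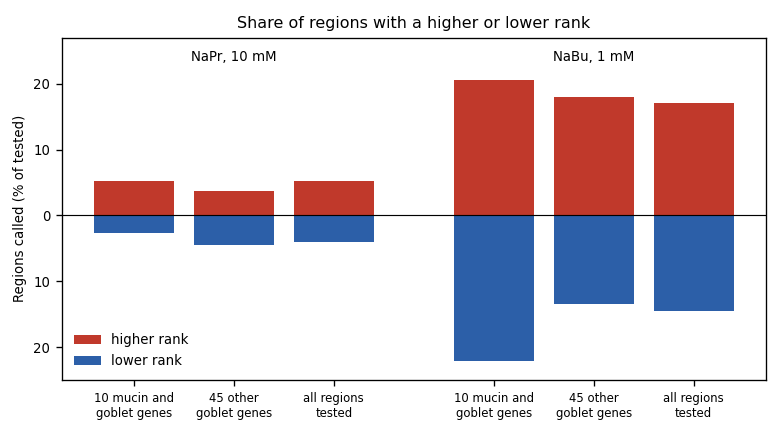
Share of tested regions (percent) with a higher (up) or lower (down) rank after NaPr or NaBu, for the 10 mucin and goblet genes, 45 other goblet genes and all regions. With NaBu the 10 genes had 20.6% higher and 22.1% lower regions, against 17.1% and 14.5% of all regions.

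The roles of the genes differed in their counts. With NaBu, 7 of 23 regions at transmembrane mucins rose and 1 fell, 6 of 30 at gel-forming mucins rose and 8 fell, 0 of 10 at trefoil genes rose and 5 fell, and SPDEF had 1 of 5 in each direction. Of all regions tested with NaBu, 17.1% rose and 14.5% fell. Of the 5 trefoil falls, 4 lay close together at TFF3 and 1 was at TFF1. Ranking by fold enrichment left 3 higher and 1 lower at the transmembrane mucins and 0 and 2 at the trefoil genes. Recovered pileups scaled by the background, for regions with a peak in all 6 libraries, gave 7 higher and 2 lower of 17 at the transmembrane mucins and 1 higher and 3 lower of 4 at the trefoil genes. Leaving out NaBu-treated replicate 2 or 3 lowered the rises at transmembrane mucins to 4. The falls at trefoil genes numbered 2 without untreated replicate 3, and 3 without untreated replicate 1 or 2 or treated replicate 1 or 2, with 2 rises when treated replicate 1 was left out. SPDEF had 2 falls without treated replicate 1 and 2 rises without treated replicate 2. Place within the window also varied. Upstream of the genes 1 of 18 regions rose and 7 fell, and beyond their ends 7 of 13 rose and 0 fell (1 higher and 4 lower of 11 upstream, 6 higher and 1 lower of 10 downstream with scaled pileups). Ranked by fold enrichment, 0 of 18 upstream regions rose and 6 fell, and 4 of 13 downstream regions rose and 1 fell. Downstream rises numbered 5 without treated replicate 2 or 3 and 8 without treated replicate 1. Those at MUC1 and SPDEF lie inside TRIM46 and PACSIN1. Introns held 6 higher and 6 lower of 30, and exons 0 higher and 2 lower of 7. The 6 intronic falls became 1 without untreated replicate 1, 2 without untreated replicate 3 or treated replicate 1, 3 without treated replicate 2, 4 without untreated replicate 2 and 3 when ranked by fold enrichment. The 2 exonic falls became 1 without untreated replicate 2 or 3 or treated replicate 3 and 1 by fold ranking, and 1 exonic region rose without treated replicate 2. The same placing was applied to the windows of all protein-coding genes, where a region in several windows counts for each. With NaBu 13.6% of upstream regions rose and 15.5% fell there, 14.4% and 16.3% of downstream regions, 17.1% and 15.5% of intronic regions, and 8.96% and 21.7% of exonic regions. With NaPr, 0 of 16 upstream regions rose and 1 fell, and 3 of 18 downstream regions rose and 0 fell, against 4.4% higher and 5.07% lower upstream and 4.16% and 5.73% downstream over all genes. Without untreated replicate 1 or treated replicate 1, 1 downstream region fell with NaBu. These counts are descriptions, and differences between the groups of regions were not tested. Of the 96 regions, 12 overlapped another gene, and 4 of the 11 tested rose and 1 fell with NaBu.

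**Figure D3:**
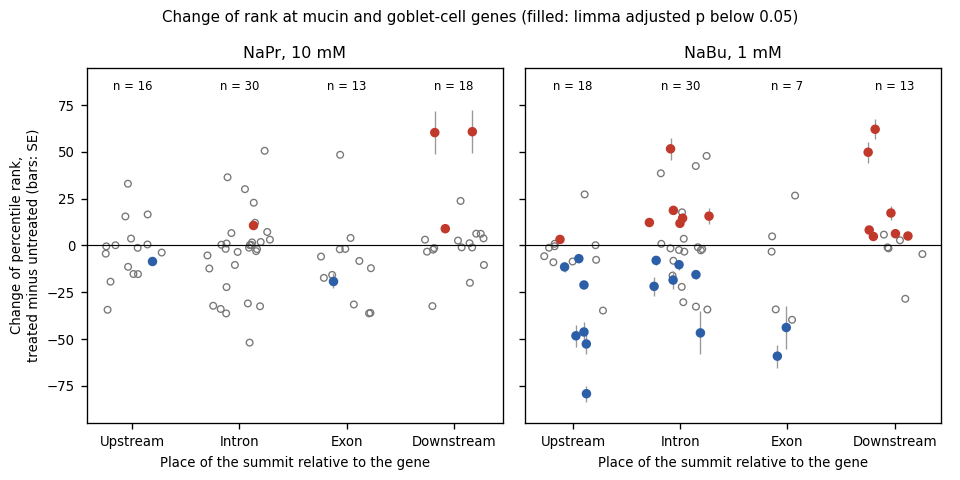
Change of percentile rank (treated minus untreated) of each tested region by place of its summit, for NaPr (left) and NaBu (right). Filled points were called by limma, red for higher and blue for lower, with bars for the SE. With NaBu, 7 filled points lie below 0 upstream and 7 above 0 downstream.

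At MUC1, a mucin found on most epithelial surfaces, the start region held steady near the top of the scale. It lies at chr1:155192832-155194107 with its summit 799 bp upstream and within 1 kb of a start of THBS3-AS1. Its ranks were 96.6, 98.2 and 96.8 in untreated and 97.2, 98.0 and 96.8 in NaPr-treated libraries (change 0.113, SE 0.573, limma adjusted p = 0.967). In the NaBu experiment they were 94.1, 94.3 and 95.3 without and 94.7, 95.9 and 95.7 with the compound (change 0.872, SE 0.506, limma adjusted p = 0.211). The groups overlapped in both experiments, and the sequence of this region holds the GC box shown above. Of the 6 regions at MUC1, 2 were called, and both lay beyond its end inside TRIM46, a neighbouring gene that encodes a microtubule-associated protein of neurons. With NaBu the region at chr1:155176311-155177095 rose from 80.7, 79.6 and 84.1 to 90.4, 89.9 and 88.8 (limma adjusted p = 0.00451). The next, at chr1:155176010-155176207, rose by 17.3 points (SE 3.77, limma adjusted p = 0.0160), but its call was lost without treated replicate 2 or 3 (adjusted p = 0.0576 and 0.0583) and by fold ranking (7.97 points, adjusted p = 0.151). Neither passed the test with NaPr (adjusted p = 0.375 and 0.998).

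MUC4, a large membrane mucin that can bind the receptor ErbB2, had no region within 500 bp of its start. A region 9559 bp upstream, at chr3:195820911-195822172, had ranks of 90.0, 90.2 and 91.5 in untreated and 81.2, 80.9 and 84.0 in NaPr-treated libraries. Its fall of 8.52 points (SE 1.19, limma adjusted p = 0.0202) separated the groups, and was lost without untreated replicate 2 (adjusted p = 0.0517). With NaBu the values were 82.0, 71.4 and 72.0 against 66.5, 63.2 and 72.7, which overlapped (change -7.68, SE 3.95, limma adjusted p = 0.164). An intronic region 54934 bp from the start, at chr3:195756718-195757714, rose with NaBu from 82.5, 79.1 and 80.9 to 92.3, 92.9 and 92.7 (change 11.8, SE 0.974, limma adjusted p = 0.000779). Its summit held 98, 55 and 72 tags in the untreated and 150, 158 and 160 in the treated libraries. Further along, the intronic region at chr3:195747563-195748412 fell by 8.001 points (SE 2.38, limma adjusted p = 0.0475). That call did not survive leaving out untreated replicate 1, 2 or 3 or treated replicate 1 or 2 (adjusted p = 0.0876 to 0.131). Of the 12 regions at MUC4, 6 had no peak in any NaBu-experiment library.

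MUC13 is a membrane mucin of the intestinal brush border. The region nearest a transcript start lay at chr3:124934276-124935647, 18955 bp inside the gene at the start of another annotated transcript. NaBu libraries ranked it at 76.6, 72.0 and 70.4 without and 72.6, 69.4 and 74.0 with the compound (change -0.973, SE 2.42, limma adjusted p = 0.782). In the NaPr experiment it ranked 64.3, 51.5 and no peak against 64.0, 70.9 and 70.9 (change 30.1, SE 15.9, limma adjusted p = 0.247). An intronic region 2576 bp from the gene start, chr3:124951081-124951352, rose with NaBu from 59.1, 65.8 and 68.2 to 78.7, 80.3 and 77.9 (change 14.5, SE 2.79, limma adjusted p = 0.00980). The NaPr values there were no peak in 2 untreated libraries and 56.5 in the third, against 61.7, 78.1 and 68.3, and missed the threshold (change 50.6, SE 16.8, limma adjusted p = 0.120).

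MUC17, another brush border mucin, held a region that rose in both experiments. In its intron, 1799 bp from the start at chr7:101021564-101022254, the ranks were 78.5, 84.6 and 83.6 untreated and 94.4, 92.7 and 92.5 with NaPr (change 10.97, SE 1.66, limma adjusted p = 0.0226, and 0.0517 without untreated replicate 2). With NaBu they went from 77.5, 77.4 and 79.2 to 91.8, 88.8 and 90.2 (change 12.2, SE 1.10, limma adjusted p = 0.000867). Every treated library lay above every untreated one. On the recovered pileup, scaled by the background, the log2 change was 1.00 (SE 0.23) with NaPr and 0.97 (SE 0.11) with NaBu. Ranked by fold enrichment, it was 11.93 points higher with NaPr (adjusted p = 0.133) and 7.56 with NaBu (adjusted p = 0.0881), so that neither call was kept. Other calls at MUC17 were smaller. The region 2815 bp upstream, chr7:101017054-101017806, overlaps MUC12, another membrane mucin, and rose by 3.20 points with NaBu (SE 0.884, limma adjusted p = 0.0375). It lost its call without untreated replicate 1 or 2 or treated replicate 2 or 3 (adjusted p = 0.0927 to 0.108), and changed sign when ranked by fold enrichment (-3.47, adjusted p = 0.171). Just beyond the gene, chr7:101058969-101059955 rose by 5.03 points (SE 1.25, limma adjusted p = 0.0262), and fell short without untreated replicate 1 or 3 or treated replicate 2 or 3 (adjusted p = 0.0671 to 0.0882) and by fold ranking (2.76 points, adjusted p = 0.268). A region at the start of another annotated transcript, 32261 bp inside MUC17, was not called with NaPr (limma adjusted p = 0.274) or NaBu (0.981), although without treated replicate 3 the NaPr value passed (adjusted p = 0.0475).

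MUC2, which makes up most of the colonic mucus gel, had no region within 500 bp of its start. A region with its summit 835 bp upstream was called in neither experiment (limma adjusted p = 0.616 with NaPr and 0.135 with NaBu). In the NaBu experiment that region ranked 52.2, 52.2 and no peak untreated, and had no peak in treated libraries. The MUC2 coding-exon region at chr11:1077456-1078463, 3114 bp inside the gene, fell in both experiments. With NaPr the ranks went from 71.7, 73.8 and 75.0 to 56.3, 52.8 and 54.9 (change -18.9, SE 4.09, limma adjusted p = 0.0370). With NaBu they went from 61.6, 54.6 and 54.0 to 38.7 in 1 treated library and no peak in the other two (change -43.9, SE 11.5, limma adjusted p = 0.0319). The groups did not overlap in either experiment. The NaPr call was lost without untreated replicate 2 or 3 (adjusted p = 0.0651 and 0.0711), and the NaBu call without any of the untreated replicates or treated replicate 1 or 3 (adjusted p = 0.0795 to 0.101). By fold ranking neither passed, at -17.6 points with NaPr (adjusted p = 0.184) and -38.0 with NaBu (adjusted p = 0.0726). Beyond the MUC2 end, 38254 bp from its start at chr11:1112870-1113196, a region appeared with both compounds. No untreated library of either experiment had a peak there. The NaPr libraries ranked it at 66.4, 59.2 and 55.2 (SE 11.3, limma adjusted p = 0.0297, and 0.0517 without untreated replicate 2), with 24, 25 and 35 tags at the summit. The NaBu libraries ranked it at 48.5, 52.8 and 48.1 (SE 5.54, limma adjusted p = 0.00138), with 38, 43 and 39 tags. Its neighbour at chr11:1113406-1115366 was open in all 12 libraries and rose by 4.80 points with NaBu (SE 0.785, limma adjusted p = 0.00496), but was lower when ranked by fold enrichment (-2.96, adjusted p = 0.0521).

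MUC5AC showed the greatest fall of any region at the 10 genes. A region 8964 bp upstream of its start, chr11:1148542-1149242, ranked 77.4, 79.4 and 80.8 in untreated NaBu-experiment libraries, with 133, 96 and 124 tags, and had no listed peak in the 3 treated libraries (change -79.2, SE 4.31, limma adjusted p = 0.000707). No library of the NaPr experiment had a peak there. A coding-exon region at chr11:1199088-1199275 behaved alike, with 65.5, 51.1 and 60.9 before and no peak after NaBu (change -59.2, SE 6.07, limma adjusted p = 0.00115). The start region, chr11:1157781-1158676 in the first intron, fell from 65.7, 59.5 and 66.5 to 40.6, 42.0 and 53.6 (change -18.5, SE 4.91, limma adjusted p = 0.0329). This call was lost without untreated replicate 1 or 3 or treated replicate 1 or 2 (adjusted p = 0.0833 to 0.095). In the NaPr experiment the start region had a peak in a single treated library. Beyond the MUC5AC end, chr11:1202123-1204193 rose with NaBu from 87.1, 87.4 and 89.8 to 93.3, 95.03 and 94.8 (change 6.27, SE 0.904, limma adjusted p = 0.00303).

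MUC5B had the most regions, 19. With NaBu 17 were tested and 7 called, 3 higher and 4 lower, while 31.6% of all regions were called. Close to its start, 3 neighbouring intronic regions lay 764 to 2173 bp from the gene start. The start region, chr11:1223556-1223907, ranked 52.5 in 1 untreated library and had no peak in the other two, against 65.3, 71.0 and 59.6 after NaBu (change 47.8, SE 14.95, limma adjusted p = 0.0551), and it passed the test without untreated replicate 1 (adjusted p = 0.00329). The next, chr11:1224014-1224842, rose from 63.1, 69.6 and 69.7 to 85.9, 86.8 and 85.8 (change 18.7, SE 2.15, limma adjusted p = 0.00150). The third, chr11:1224943-1225723, had no peak untreated and ranks of 57.1, 51.4 and 46.4 after NaBu (SE 5.88, limma adjusted p = 0.00147). Just upstream, chr11:1221023-1221534 did the reverse, from 50.3, 51.2 and 43.2 to no peak (change -48.3, SE 5.84, limma adjusted p = 0.00173). As a percentile among each library's own peaks, its change was -11.4 points and was not called (limma adjusted p = 0.0795). Deeper in the gene 3 intronic regions fell. The one at chr11:1233065-1233546 fell by 21.9 points (SE 4.96, limma adjusted p = 0.0186), and missed the threshold without untreated replicate 1 or 2 (adjusted p = 0.0582 and 0.0644). That at chr11:1236530-1237593 dropped from 80.1, 82.3 and 79.9 to 62.5, 68.7 and 64.3 (limma adjusted p = 0.00287), and another at chr11:1230844-1231567 fell by 10.3 points (limma adjusted p = 0.0334, lost without untreated replicate 1 or 3 or treated replicate 1 or 3 at 0.0556 to 0.0833). A last intronic region, chr11:1259923-1260521, rose by 15.6 points (limma adjusted p = 0.0383), a call that was lost without any of the 6 libraries (adjusted p = 0.0548 to 0.0907). By fold ranking the first (-9.52 points, adjusted p = 0.0547), the third (-7.86, adjusted p = 0.0730) and the last (4.11, adjusted p = 0.556) of these 4 were not called. NaPr moved none of the 11 regions tested at MUC5B past the threshold, and 2 had an unadjusted p below 0.05.

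TFF3 held the clearest fall at a gene start. Its start region was near the top of the scale in untreated NaBu-experiment libraries, at 93.5, 91.8 and 93.3, and fell to 72.7, 70.9 and 71.6 (change -21.1, SE 1.02, limma adjusted p = 0.000707). The tags at its summit numbered 344, 201 and 263 without and 77, 78 and 82 with NaBu. Its fold enrichment fell by a smaller factor, from 10.0, 8.94 and 9.60 to 5.70, 5.54 and 5.35. Why tags and fold enrichment fell unequally was not tested. Scaled by the background, the log2 change of this pileup was -1.69 (SE 0.11, limma adjusted p = 2.25e-09). The region had no peak in any of the 6 libraries of the NaPr experiment. Another 3 of the 6 TFF3 regions tested also fell with NaBu. An intronic region at chr21:42313568-42313804 went from 56.6, 65.9 and 55.4 to 37.7 in 1 library and no peak in the others (change -46.7, SE 11.4, limma adjusted p = 0.0246), a call lost without any untreated replicate or treated replicate 1 or 2 (adjusted p = 0.0634 to 0.0828). Upstream, chr21:42317313-42317872 fell by 11.5 points (SE 2.51, limma adjusted p = 0.0163, lost without untreated replicate 2 or 3 at 0.0504 and 0.0503). Its neighbour chr21:42316884-42317207 fell by 7.07 points (SE 1.72, limma adjusted p = 0.0241), which leaving out untreated replicate 2 alone did not undo (0.0557 to 0.0726 without each of the others). Ranked by fold enrichment, these regions were not called, at -31.4 points for the intron (adjusted p = 0.102), -6.74 for the upstream region (adjusted p = 0.154) and -1.20 for its neighbour (adjusted p = 0.746).

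Beyond the TFF3 end, 4749 bp from its start at chr21:42310327-42310926, a region appeared with NaPr. It ranked 66.5, 62.9 and 52.8 in the treated libraries, on 19, 22 and 25 tags, and had no peak in untreated ones (SE 11.4, limma adjusted p = 0.0299, and 0.0517 without untreated replicate 2). This was the greatest rise at the 10 genes with NaPr, and no library of the NaBu experiment had a peak there. At TFF1 the region at the start, chr21:42366753-42367013, had a peak in 2 of the 12 libraries, NaBu-treated replicates 2 and 3 with ranks of 44.998 and 36.8. It was not called (limma adjusted p = 0.138, and 0.00198 without treated replicate 1). A region 10048 bp upstream of TFF1, inside the serine protease gene TMPRSS3 at chr21:42376205-42376741, ranked 50.8, 54.8 and 52.3 without and had no peak with NaBu (change -52.6, SE 5.37, limma adjusted p = 0.00113). It rested on 29, 24 and 26 tags and had no peak in the NaPr experiment.

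SPDEF changed at its flanks. Beyond its end and inside PACSIN1, whose protein acts in endocytosis, chr6:34531707-34532137 rose with NaPr from 78.6, 80.9 and 82.3 to 90.5, 90.4 and 87.8 (change 8.95, SE 1.41, limma adjusted p = 0.0236, and 0.0517 without untreated replicate 2). In the NaBu experiment the same region had no peak untreated and ranks of 58.3, 61.5 and 66.4 after treatment (SE 5.25, limma adjusted p = 0.000793), the greatest rise at the 10 genes with NaBu. The untreated libraries of the experiments thus stood far apart there. Upstream of SPDEF, chr6:34560458-34561219 had ranks of 47.1, 45.7 and 46.0 and none after NaBu (change -46.2, SE 5.58, limma adjusted p = 0.00171), on 23, 17 and 19 tags. These ranks belong to weak peaks. As a percentile among each library's own peaks, the change was -7.93 points and was not called (limma adjusted p = 0.096). With NaPr the same upstream region ranked 78.8, 76.0 and 75.4 against 75.5, 69.5 and 73.9 (change -3.80, SE 2.56, limma adjusted p = 0.362). The start region, chr6:34556002-34556448, had a peak in 3 of the 12 libraries, NaPr-treated replicate 2 and NaBu-treated replicates 1 and 3, and was not called (limma adjusted p = 0.139 with NaBu, and 0.00186 without treated replicate 2).

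**Figure D4:**
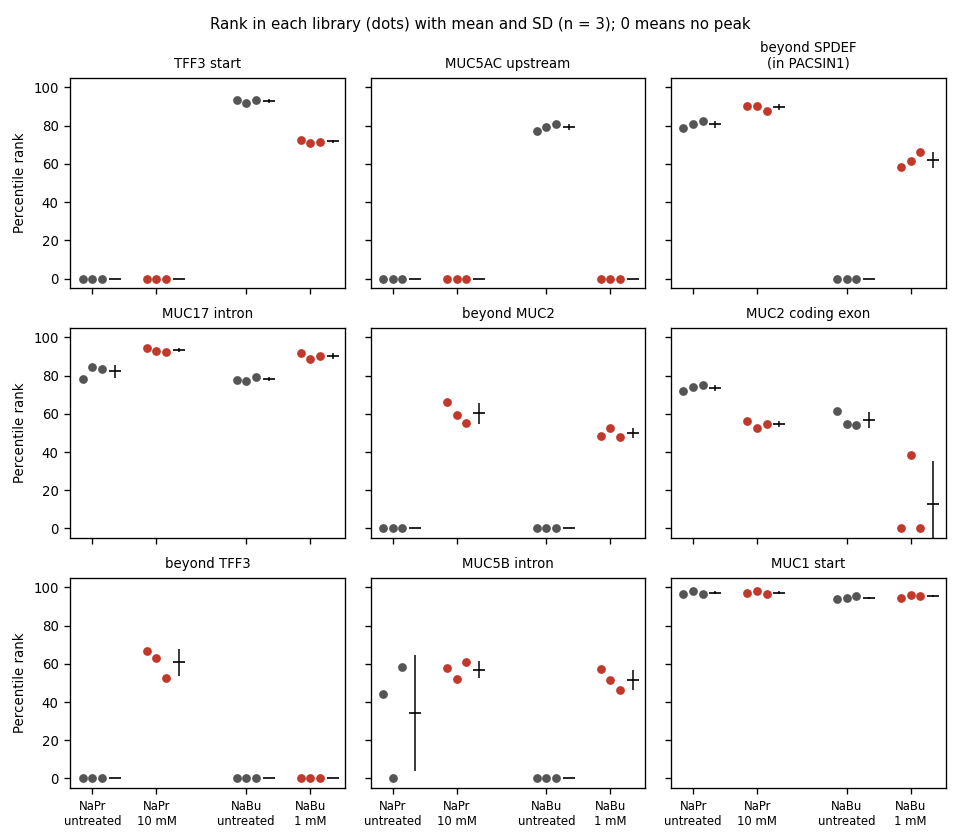
Percentile rank in each library (dots, grey untreated and red treated) with mean and SD (n = 3) for 9 regions, where 0 means no peak and a bar reaching below the axis is clipped. The TFF3 start lies between 91.8 and 93.5 without and between 70.9 and 72.7 with NaBu and has no peak in the NaPr experiment, while the MUC1 start stays between 94.1 and 98.2 in all 12 libraries.

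Set side by side over the regions tested in both experiments, 3 were called higher by each compound, at MUC17, MUC2 and SPDEF, and 1 was called lower by each, the MUC2 exon. Over the genome, 9.26% of regions were called with NaPr and 31.6% with NaBu. The share of all regions called alike in both is not given here, so these shared calls do not set the 10 genes apart. The experiments have separate untreated libraries. The MUC4 upstream region was called lower with NaPr only, and another 10 were called higher and 8 lower with NaBu only, but the difference between compounds was not tested.

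Other genes of the mucus programme gave 312 regions at 45 genes. With NaPr, 9 rose and 11 fell of 244 tested (8.20%, all regions 9.26%), and with NaBu 40 rose and 30 fell of 223 (31.4%, all regions 31.6%). Regions at other mucins and TFF2, of which 5 are shared with the windows above, had 10 higher and 4 lower of 23 with NaBu (60.9%, all regions 31.6%). Their median change was 16.7, against 0.560 over all regions. The greatest of these rises, at a region near MUC16 that lies in MBD3L1, went from no peak to 62.8, 59.96 and 71.7 (limma adjusted p = 0.000807). A region 3538 bp upstream of MUC6, a gastric gel-forming mucin, fell from 81.9, 71.2 and 79.3 to 56.7 in 1 library and no peak in the others (limma adjusted p = 0.0354). Goblet products and granule genes had 11 higher and 4 lower of 41 (36.6%, all regions 31.6%). SYTL2, which tethers secretory granules, held 6 of the 11 rises among its 9 regions tested. An intronic region of SYTL2 rose from no peak to 60.9, 64.3 and 64.9 (limma adjusted p = 0.000743). SPINK4, a goblet-cell peptide, lost an intronic region that had ranked 49.4, 51.1 and 47.1 (limma adjusted p = 0.0014).

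Enzymes that build the sugar chains of mucins had 11 higher and 12 lower of 103 regions with NaBu (22.3%, all regions 31.6%). GALNT7 had 5 of the 12 falls among its 19 regions tested. With NaPr they had 6 higher and 3 lower of 90 (10.0%, all regions 9.26%). Regions near ST3GAL1, in an intron of GCNT4 and near FUT2 rose there from no peak to mean ranks of 58.2, 53.5 and 50.9 (limma adjusted p = 0.0315, 0.0368 and 0.0428). The one near FUT2 overlaps another gene, MAMSTR. Transcription factors of the goblet and secretory lineage had 8 higher and 10 lower of 56 with NaBu (32.1%, all regions 31.6%). CREB3L1, a regulator of secretory capacity, held 4 of the 8 rises among its 15 regions tested. A region beyond HES1, a Notch target that restrains secretory fate, fell from 63.3, 54.2 and 59.2 to 37.3 in 1 library and no peak in the others (limma adjusted p = 0.0235). With NaPr, 0 rose and 5 fell of 49 in this list, 3 of the falls among the 8 regions tested at HES1. That share of 10.2% lay near the 9.26% of all regions. Regions near MUC20, MUC3A and TFF2 fell with NaPr by 51.2, 49.95 and 22.1 points (limma adjusted p = 0.0404, 0.0404 and 0.0259). The one near MUC3A overlaps MUC12.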

How the data were processed

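ATAC-seq peak lists of 12 SW480 libraries were analysed, and CT26 lists were not used here. Per the labels and methods, the authors aligned reads to GRCh38 with Bowtie2 and called peaks in each library with MACS2 in the ENCODE pipeline. The submitters' processing notes name bcl2fastq 2.17.1, cutadapt 1.9.1, Bowtie2 2.3.1 and MACS2 2.1.0. The deposited lists give each summit's fold enrichment (a ratio), −log10 p, −log10 q and offset. They end at peak number 300000 in every library, so that no peak means none past that list's limit, and hold 108442 to 144398 intervals. The weakest listed −log10 p was 3.37 to 6.53 in the NaPr libraries and 7.25 to 9.38 in the NaBu libraries. A region with no peak was thus held to a different limit in each library. Reads were not analysed here.

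Intervals of the 12 lists were merged at 1 bp overlap, and the 167303 regions found in 2 or more libraries received a percentile rank per library from their best −log10 p, with no peak at 0. Those found in 2 or more of the 6 libraries of an experiment were tested with limma 3.58.1 (R 4.3.3, lmFit and eBayes with trend, two-sided), with Benjamini-Hochberg adjustment over all regions and calls below 0.05. The script was tested on simulated data with a peak in every library, so that regions with no peak in some libraries were not covered. Tag pileups were solved from fold and p as a Poisson test, for 100.0% of summits within 0.01 in log10 p. Annotation was GENCODE 44. Start regions lie within 500 bp of the gene's 5′ end, or of another transcript start. The naming rule took each start region and up to 3 called regions per gene and comparison. The other called regions were added after their values were seen, so that each is described. A further marker of another cell type and a further sequence, beside those printed, are not reported here. Members, lists and markers were chosen with earlier results of these data known. Replicates of a group shared at most 0.796% identical intervals.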

Additional observations from a re-analysis of the deposited data

How the results depend on the processing

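The number of called regions at the 10 genes, 6 with NaPr and 29 with NaBu, was recomputed under each alternative. For NaPr it was 11 with pileups scaled by their median, 10 with a percentile among own peaks, 10 with all 12 libraries in 1 fit, 3 with the gene body and 2 kb, and 16 with 50 kb. Leaving out a library gave 0 to 10, with 0 over the whole genome without untreated replicate 2. For NaBu it was 19 when ranked by fold enrichment, 16 with the top 50000 intervals, 57 with 50 kb, and 21 to 27 without 1 library. The cause of these shifts was not tested, except that windows and shorter lists change the number of regions tested. Over the whole genome, the 11491 NaPr calls became 7235 by fold ranking and 20947 with pileups scaled by their median (of 65178 regions tested), and 6677 with a peak in at least 4 libraries, and the 39082 NaBu calls became 21446 with the top 50000 intervals. Deviations of same-numbered libraries correlated only weakly, at 0.0134 to 0.0483 (NaPr) and 0.00488 to 0.0149 (NaBu). Pairs of different numbers lay at -0.0377 to 0.0202 (NaPr) and -0.0157 to 0.00753 (NaBu). In the NaPr experiment untreated replicate 2 correlated more with treated replicate 1 (0.0202) than with its own number. Every other untreated library correlated most with its own number. Values this small do not settle whether the numbers pair the libraries, and the main test used no pairing. With the replicate block, NaPr had 0 calls in limma (16 members with an unadjusted p below 0.05, 0 regions called over the genome) and NaBu 20, 29.4% of the members against 27.6% of all regions, with 1 intronic and 1 exonic fall in place of 6 and 2. Among called regions, 10 of 29 with NaBu and 0 of 6 with NaPr were called in every alternative in which they could be fitted. Of the 29 NaBu calls, 10 were not kept by fold ranking, beside 2 that changed sign, 8 with all 12 libraries in 1 fit and 5 with a percentile among own peaks. Only the NaBu regions upstream of MUC17 (-3.47) and beyond MUC2 (-2.96) changed sign, both by fold ranking.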
